A study of Mus musculus with 12 samples.

Results

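The 10 genes described here, F2, Cpb2, Fgl1, A2m, Rbp4, Ttr, Hp, Fga, Fgb and Fgg, encode proteins that the liver is known for making and secreting into the blood. They were named as a list with the difference between TRACK and control kidneys already known, and their rows were found by gene symbol among the 37681 genes of the deposited table. All 10 were present, and all 10 were among the 19399 genes with enough reads for the test. Because the genes were selected on the contrast of TG+ with TG- mice, their differences in that contrast are given as a description. Counts of the genes past the study's threshold restate that choice and support nothing.

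The study sequenced RNA from the kidney cortex of untreated male C57BL/6 mice at 18 months of age, 3 TRACK mice (TG+, genotype TRACK/gamma-HIF1alphaM3 TG+) and 3 wild-type littermates (TG-). In TRACK mice a mutant, constitutively active HIF1α is expressed in the proximal tubules of the kidney, and the line is used as a model of clear cell renal cell carcinoma. Each mouse gave 2 libraries, from its 2 kidneys, so there were 12 libraries from 6 mice. A thin outer slice of cortex holds tubules, glomeruli, vessels, stroma and blood, and the transgene is directed to the proximal tubules alone. In such bulk RNA, fewer cells of a type and less RNA per cell cannot be told apart.

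As background, hepatocytes make most plasma proteins, and the genes for these proteins are read by a set of liver transcription factors, some of which, such as Hnf4a, are also active in the proximal tubule. The kidney filters the smaller of these proteins and takes them up again in the proximal tubule through the receptors megalin (Lrp2) and cubilin (Cubn). F2 is prothrombin, the precursor of thrombin, which cleaves the fibrinogen made of the Fga, Fgb and Fgg chains into fibrin. Cpb2 is the carboxypeptidase TAFI, which slows the dissolving of fibrin, and A2m is a broad protease inhibitor that traps proteases in the circulation. Rbp4 carries retinol and circulates in a complex with transthyretin (Ttr), which also carries thyroid hormone. Hp is haptoglobin, which binds free haemoglobin, and Fgl1 is a fibrinogen-like hepatokine that is also a ligand of the immune receptor LAG3.

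In the GRCm38 assembly with GENCODE M21 annotation, the 3 fibrinogen genes lie together on chromosome 3, with Fgg (ENSMUSG00000033860) at chr3:83007724-83015049, Fga (ENSMUSG00000028001) at chr3:83026076-83033627 and Fgb (ENSMUSG00000033831) at chr3:83040141-83049863. The other 7 are spread over the genome. F2 (ENSMUSG00000027249) lies at chr2:91625320-91636414, Rbp4 (ENSMUSG00000024990) at chr19:38116629-38125281, A2m (ENSMUSG00000030111) at chr6:121635376-121679227 and Cpb2 (ENSMUSG00000021999) at chr14:75242287-75283555. Fgl1 (ENSMUSG00000031594) and Hp (ENSMUSG00000031722) are both on chromosome 8 (chr8:41191434-41215156 and chr8:109575128-109579172), and the position of Ttr is given beside its values. These intervals span the whole gene, exons and introns.

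The 250 bases before the start site were read from RefSeq (GRCm38.p6) for 6 of the 10 genes, with 7 start sites, and 4 are printed because they belong to a gene with one of the largest differences (F2, Rbp4, Cpb2) or to a gene without one (Fgb). Capitals mark matches, on either strand, to any of 3 short motifs, namely the hypoxia response cores ACGTG and GCGTG and the IL-6 response element CTGGGAA. All are given 5′ to 3′ on the strand of the gene and end at the base before the start site.
F2, chr2:91636458-91636707, minus strand: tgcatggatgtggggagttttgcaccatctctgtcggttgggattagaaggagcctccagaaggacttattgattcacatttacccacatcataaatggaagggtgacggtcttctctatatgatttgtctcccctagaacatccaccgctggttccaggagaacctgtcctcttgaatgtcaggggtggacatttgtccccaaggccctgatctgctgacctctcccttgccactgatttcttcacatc
Rbp4, chr19:38124812-38125061, minus strand: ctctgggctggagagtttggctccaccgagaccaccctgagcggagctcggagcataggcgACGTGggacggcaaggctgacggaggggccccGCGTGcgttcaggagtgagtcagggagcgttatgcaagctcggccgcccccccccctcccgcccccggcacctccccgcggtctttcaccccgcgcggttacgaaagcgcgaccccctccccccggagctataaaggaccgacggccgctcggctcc
Cpb2, chr14:75242037-75242286, plus strand: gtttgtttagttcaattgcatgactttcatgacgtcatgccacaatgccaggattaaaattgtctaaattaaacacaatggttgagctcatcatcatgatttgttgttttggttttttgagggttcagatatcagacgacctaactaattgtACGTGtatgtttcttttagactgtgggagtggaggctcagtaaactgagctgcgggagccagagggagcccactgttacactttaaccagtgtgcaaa
Fgb, chr3:83049864-83050113, minus strand: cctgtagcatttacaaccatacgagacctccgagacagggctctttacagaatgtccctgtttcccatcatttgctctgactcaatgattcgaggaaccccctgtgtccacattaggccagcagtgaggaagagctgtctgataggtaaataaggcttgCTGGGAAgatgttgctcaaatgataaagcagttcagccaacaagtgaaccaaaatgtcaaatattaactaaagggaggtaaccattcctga
The F2 window held none of the 3 motifs. The Rbp4 window, before a start site within the annotated gene, held ACGTG at 189 to 185 bases and GCGTG at 157 to 153 bases before the start, whereas the window of the other RefSeq start site of Rbp4 held none. Cpb2 held ACGTG at 98 to 94 bases before its start. Fgb held CTGGGAA at 91 to 85 bases, Fga held none, and Fgg held GCGTG on its opposite strand at 146 to 142 bases and CTGGGAA at 13 to 7 bases. Of 32536 distinct mouse promoter windows of this length, 16.7% held ACGTG, 28.3% held GCGTG and 9.14% held CTGGGAA on either strand. ACGTG can overlap its own match on the opposite strand, and these matches are a description of the letters only.

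The levels of the 10 genes, given as CPM (counts per 1000000 reads of the scaled library size), fell into 3 patterns. F2, Rbp4, A2m, Cpb2 and Fgl1 were close to the detection limit in TG- kidneys, with at most 31 reads in any TG- library (24963346 to 33704850 reads each), and were about 30-fold to 249-fold higher in TG+ mice. Ttr was well expressed in both genotypes and higher in TG+ mice. Hp and the 3 fibrinogen genes had levels that overlapped between the genotypes. At the threshold used by the study (fold change above 2 and adjusted p below 0.01), 6 of the 10 genes (F2, Rbp4, A2m, Cpb2, Fgl1 and Ttr) were called higher, against 3.77% of all tested genes, and none of the 10 was called lower, against 0.211% of all tested genes. The median log2 fold change was 3.49 over the 10 genes and 0.01 over all tested genes, and these counts follow from how the genes were chosen. The same 6 genes had every TG+ mouse above every TG- mouse, as did 23.4% of all tested genes.

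**Figure D1:**
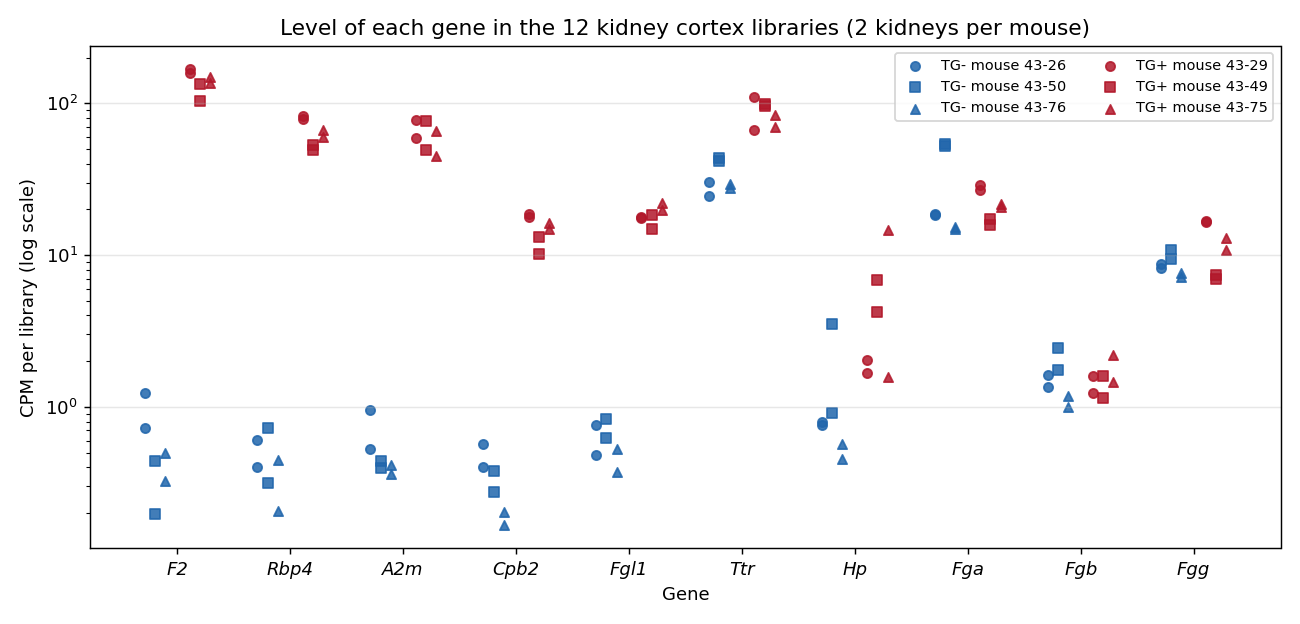
Level of the 10 genes in CPM in each library on a log axis, with TG- libraries in blue, TG+ libraries in red and the 2 kidneys of a mouse in the same symbol. For F2, Rbp4, A2m, Cpb2, Fgl1 and Ttr all 6 TG+ points lie above all 6 TG- points, and for Hp, Fga, Fgb and Fgg the colours overlap.

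Among the proteins of clotting, prothrombin showed the largest difference. F2 was at 164, 142 and 120.1 CPM in TG+ mice 43-29, 43-75 and 43-49, and at 0.975, 0.409 and 0.333 CPM in TG- mice 43-26, 43-76 and 43-50. All 6 TG+ libraries had between 2817 and 4541 F2 reads, while the 6 TG- libraries had between 5 and 31. The means were 142 ± 21.9 and 0.572 ± 0.351 CPM (SD, n = 3 mice), a log2 fold change of 7.96 (SE 0.29), which was the highest of the 10 genes. The TG- libraries held few reads for such a fold. With 1 mouse left out, the log2 fold change of F2 ranged from 7.66 without TG- mouse 43-50 to 8.58 without TG- mouse 43-26. The cause of this range was not tested.

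Cpb2, which protects fibrin from being dissolved, was at 18.2, 15.6 and 11.8 CPM in TG+ mice 43-29, 43-75 and 43-49. In TG- mice 43-26, 43-50 and 43-76 it was at 0.487, 0.333 and 0.184 CPM, or between 4 and 15 reads per library. The groups did not overlap, with a log2 fold change of 5.48 (SE 0.28). The order of the TG+ mice was the same for Cpb2 and F2, with 43-29 highest and 43-49 lowest.

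Of the fibrinogen genes, whose product is the substrate of thrombin, Fga and Fgg had 367 or more and 173 or more reads in each TG- library, while Fgb had 24 to 62. Fga was at 27.9, 21.2 and 16.5 CPM in TG+ mice 43-29, 43-75 and 43-49 and at 53.0, 18.5 and 15.1 CPM in TG- mice 43-50, 43-26 and 43-76. The highest and the lowest mouse were thus both TG- (log2 fold change -0.41, SE 0.45). Without TG- mouse 43-50 the value turned positive, to 0.38.

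Fgg was at 16.6, 11.8 and 7.14 CPM in TG+ mice 43-29, 43-75 and 43-49 and at 10.02, 8.50 and 7.39 CPM in TG- mice 43-50, 43-26 and 43-76 (log2 fold change 0.45, SE 0.27). Its lowest mouse was TG+ and its highest was TG+. Fgb was low in every mouse, between 1.36 and 1.81 CPM in TG+ mice and between 1.08 and 2.07 CPM in TG- mice (log2 fold change -0.02, SE 0.25). The 3 chains therefore showed overlapping genotypes, with no chain close to the differences of F2 or Cpb2.

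Within a mouse the fibrinogen chains were not in a fixed proportion. The ratio of Fga to Fgg in deposited RPKM was 3.28 in TG- mouse 43-50 and lay between 1.05 and 1.44 in the other 5 mice. Fgg to Fgb was 5.67 in TG+ mouse 43-29 and between 2.35 and 3.28 in the other 5 mice. Fga to Fgb was 7.71 in TG- 43-50, 5.95 in TG+ 43-29 and between 3.56 and 4.18 in the remaining mice. Fgb had few reads in every library, which limits the ratios to Fgb. Both kidneys of 43-50 had the high Fga level, at 52.6 and 53.5 CPM, while the other 10 libraries lay between 14.8 and 28.9 CPM. Gene length cancels when such a ratio is compared between mice. In the annotation an exon of Fgg overlaps an exon of Gm30097, and the use of strand in the counting is not given in the sources used here, so reads of these genes may not be told apart.

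Among the inhibitors and carriers, A2m was at 68.8, 63.6 and 55.5 CPM in TG+ mice 43-29, 43-49 and 43-75 and at 0.741, 0.420 and 0.389 CPM in TG- mice 43-26, 43-50 and 43-76. The TG- libraries held between 9 and 24 reads and the TG+ libraries between 1115 and 2278. The log2 fold change was 6.92 (SE 0.19). Pzp, the closest relative of A2m among the genes listed here and an inhibitor of the same family, was at 64.2 ± 5.87 CPM in TG+ and 203 ± 11.6 CPM in TG- mice (log2 fold change -1.67, SE 0.08, edgeR adjusted p = 1.56e-05). The differences of A2m and Pzp thus had opposite signs, and reads shared between relatives could be counted for either gene. The further relatives Mug1 and Mug2 were at or near 0.

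Rbp4, the retinol carrier, was at 79.9, 63.5 and 51.1 CPM in TG+ mice 43-29, 43-75 and 43-49 and at 0.543, 0.507 and 0.327 CPM in TG- mice 43-50, 43-26 and 43-76 (log2 fold change 7.12, SE 0.24). The TG- libraries held between 5 and 23 reads. Its partner Ttr (ENSMUSG00000061808, chr18:20665280-20674321) was at 97.1, 90.6 and 76.9 CPM in TG+ mice 43-49, 43-29 and 43-75 and at 42.7, 28.6 and 27.5 CPM in TG- mice 43-50, 43-76 and 43-26. Ttr did not overlap between the groups, in mice or in libraries, and was 2.68-fold higher in TG+ mice (log2 fold change 1.42, SE 0.17). The 2 proteins of the retinol transport complex therefore started from very different TG- levels per length, 0.395 ± 0.0993 for Rbp4 and 27.8 ± 7.14 for Ttr in CPM per kilobase of the longest coding transcript (SD, n = 3 mice).

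Fgl1 was at 20.9, 17.8 and 16.6 CPM in TG+ mice 43-75, 43-29 and 43-49, and at 0.718, 0.624 and 0.450 CPM in TG- mice 43-50, 43-26 and 43-76. Its log2 fold change was 4.93 (SE 0.17), and the TG+ mice were within 1.26 times of each other. Its receptor gene Lag3 was at 0.868 ± 0.405 CPM in TG+ and 0.638 ± 0.313 CPM in TG- mice (edgeR adjusted p = 0.488).

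Hp was the least even of the 10 genes. It was at 7.99, 5.45 and 1.84 CPM in TG+ mice 43-75, 43-49 and 43-29 and at 2.36, 0.780 and 0.512 CPM in TG- mice 43-50, 43-26 and 43-76, so that the lowest TG+ mouse was below the highest TG- mouse. Kidney 2 of TG+ mouse 43-75 was at 14.6 CPM and kidney 1 at 1.57 CPM, a ratio of 9.30, against a fold of 4.11 between the genotypes, and the kidneys of TG- mouse 43-50 differed by 3.87 times. The log2 fold change of 2.04 (SE 0.64) rose to 2.97 without TG- mouse 43-50 and was 1.55 without TG+ mouse 43-75.

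High Hp coincided with adipocyte transcripts. The 4 libraries with the most Hp, both of TG+ 43-49, kidney 2 of TG+ 43-75 and kidney 1 of TG- 43-50, were the 4 with at least 1 CPM of Adipoq, the fat cell hormone adiponectin, at 5.44, 7.71, 9.50 and 2.86 CPM. In the other 8 libraries Adipoq was at most 0.316 CPM, and Hp was between 1.57 and 2.04 CPM in 3 TG+ libraries and between 0.456 and 0.909 CPM in 5 TG- libraries. Of 8 adipocyte markers, a list added after the Hp values were seen, 8 were tested and none was called, and 2 had an unadjusted p below 0.05, as did 39.1% of all tested genes, with a median log2 fold change of 2.16 and a summed level of 45.3 to 104 CPM in TG+ and 42.2 to 70.7 CPM in TG- mice. Leaving out the 4 libraries, which leaves 2 TG+ mice, gave a log2 fold change of 1.26 for Hp, and 6 of the 10 genes were still called. The part of adipocyte RNA in the level of Hp was not tested.

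**Figure D2:**
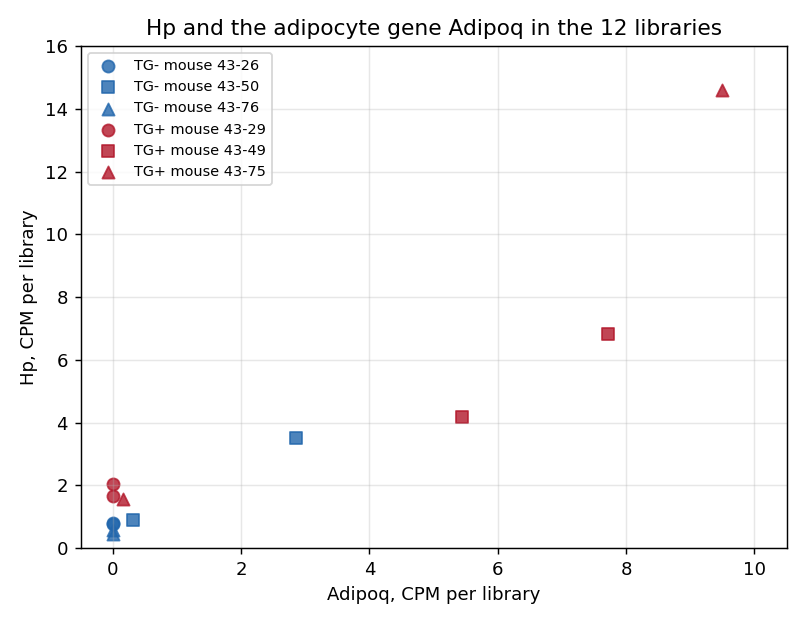
CPM of the haptoglobin gene Hp against CPM of the adipocyte gene Adipoq in the 12 libraries, TG- in blue and TG+ in red, with 1 symbol per mouse. The 4 libraries with Adipoq at 2.86 to 9.50 CPM are those with the highest Hp, and the others sit at the lower left.

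The kidneys of a mouse agreed more closely for the other genes with enough reads. In TG+ mice the higher kidney exceeded the lower by at most 1.30 times for F2 and Cpb2, 1.24 times for Fgl1, 1.11 times for Rbp4, 1.57 times for A2m and 1.66 times for Ttr. For Fga the ratio was at most 1.10 in TG+ and 1.04 in TG- mice. In TG- mice, where the reads were few, the ratio reached 2.23 for F2 and 2.29 for Rbp4.

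Differences between mice of the same genotype do not enter the rule by which the genes were chosen, and they were tested with the 2 kidneys of each mouse as its libraries, which measures mice against the spread between their kidneys. Among TG+ mice 4 of the 10 genes differed at an adjusted p below 0.01, against 8.61% of the 18680 genes tested. These were Fgg (edgeR adjusted p = 1.43e-04, highest over lowest mouse 2.32), Rbp4 (adjusted p = 2.37e-04, 1.56 times), Fga (adjusted p = 2.70e-04, 1.68 times) and Cpb2 (adjusted p = 0.00786, 1.55 times), and in each 43-29 was the highest and 43-49 the lowest mouse. Over all 10 genes 43-29 was the highest TG+ mouse for 6 and 43-49 the lowest for 7. Among TG- mice 2 of the 10 genes differed, against 14.3% of the 18070 genes tested, namely Fga (edgeR adjusted p = 8.13e-12, 3.51 times) and Ttr (adjusted p = 2.68e-05, 1.55 times), both highest in 43-50. TG- mouse 43-50 was the highest for 7 of the 10 genes and 43-76 the lowest for 8. The order of mice was not counted over all genes. Some of the 10 genes also ran together, with Pearson's r of 0.90 to 0.996 among Cpb2, Rbp4, Fga and Fgg over the 6 TG+ libraries. The share of the 10 genes that differed among TG- mice was close to the background. With no filter on low counts 8 of the 10 genes differed among TG+ mice, against 13.8% of 26392 genes, and 6 among TG- mice, against 15.3% of 25954 genes.

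Levels of different genes can be set side by side only per length. On the scale of CPM per kilobase of the longest coding transcript, Ttr (74.4 ± 8.69), F2 (71.5 ± 11.04) and Rbp4 (55.8 ± 12.4) were the highest in TG+ mice. Rbp4 was below F2 and below Ttr in each of the 3 mice, at 68.8, 54.7 and 44.0 in 43-29, 43-75 and 43-49, while F2 (82.5, 71.6 and 60.4) stood above Ttr (76.4, 64.8 and 81.9) in 43-29 and 43-75 and below it in 43-49. Fgl1 (16.5), A2m (13.6), Cpb2 (10.3), Fga (8.46), Fgg (6.81), Hp (3.79) and Fgb (0.403) followed. In TG- mice the order began with Ttr (27.8), Fga (11.2) and Fgg (4.96), and each of F2, Rbp4, A2m, Cpb2 and Fgl1 was below 0.6, as was Fgb (0.407). In deposited RPKM, which rests on other gene lengths, Ttr was again the highest and Fgb the lowest in TG+ mice and Ttr, Fga and Fgg the highest in TG- mice, but Rbp4 (29.5 ± 6.51 RPKM) stood above F2 (19.6 ± 3.02 RPKM) and Fgl1 fell to 2.77 RPKM.

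The label of liver genes was checked against markers of hepatocytes. Of 12 hepatocyte markers, 10 were under 1 CPM in TG+ mice and 4 had enough reads for the test. Cyp7a1, the rate-limiting enzyme of bile acid synthesis, had no read in any library, and it and 7 others, among them the urea cycle genes Cps1 and Otc and the asialoglycoprotein receptor genes Asgr1 and Asgr2, had at most 7 reads in any library. The summed level of the list was 403 to 483 CPM in TG+ and 354 to 421 CPM in TG- mice, nearly all of it Apob, the apolipoprotein B gene, at 438 ± 39.9 and 374 ± 31.2 CPM. Slco1b2, an organic anion uptake transporter, was the marker called higher (0.878 ± 0.208 against 0.261 ± 0.00654 CPM, edgeR adjusted p = 0.00245), a call that was lost without any 1 of the TG- mice (highest adjusted p = 0.0140). Albumin, the main plasma protein, was at 11.1 ± 2.03 CPM in TG+ and 7.98 ± 2.46 CPM in TG- mice (adjusted p = 0.160). The bile acid transporter gene Slc10a1 was at 0.882 ± 0.238 and 1.76 ± 0.337 CPM (adjusted p = 0.0216). The list was thus mixed, with Apob and Alb expressed in both genotypes, Slc10a1 and Slco1b2 low, and the other 8 near 0. The part of hepatocyte-like RNA in the levels of the 10 genes was not tested.

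Genes for other liver plasma proteins moved in both directions. Of 56 such genes in the lists of coagulation, acute-phase and carrier proteins, 55 were in the table and 37 were tested, and 5 rose (against 3.77% of all tested genes), 4 fell (against 0.211%) and 28 did not pass, with a median log2 fold change of 0.17. In coagulation and fibrinolysis 1 of 12 tested genes rose and 1 fell, in the acute phase 1 of 6 rose, and among carriers and inhibitors 3 of 19 rose and 3 fell. The risers were Gc, the vitamin D binding protein (95.8 ± 23.8 against 13.5 ± 1.87 CPM, edgeR adjusted p = 7.81e-05), Afp, the fetal counterpart of albumin (6.67 ± 2.29 against 0.938 ± 0.120 CPM, adjusted p = 4.63e-04), Serpina7, the thyroxine-binding globulin (0.624 ± 0.204 against 0.0705 ± 0.0238 CPM, adjusted p = 0.00166), the copper carrier Cp (61.3 ± 6.47 against 28.6 ± 4.59 CPM, adjusted p = 8.00e-04) and Vtn, vitronectin (0.344 ± 0.0239 against 0.0870 ± 0.0418 CPM, adjusted p = 0.00766). Of these, Serpina7 was no longer called without TG- mouse 43-76 (adjusted p = 0.0111), and Vtn was lost without any 1 of the 6 mice (highest adjusted p = 0.0274). Vtn was also not called with DESeq2 (Wald test adjusted p = 0.0157) or with littermate pairs as a replicate block (edgeR adjusted p = 0.0131).

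Besides Pzp, the genes that fell were Hrg, a heparin-binding plasma glycoprotein (4.21 ± 0.0846 against 19.4 ± 1.51 CPM, log2 fold change -2.21, edgeR adjusted p = 5.19e-06), Azgp1, the zinc-binding glycoprotein (56.3 ± 6.90 against 225 ± 2.51 CPM, -2.00, adjusted p = 9.86e-06), and Apoh, which binds phospholipid (4.92 ± 0.528 against 13.1 ± 2.09 CPM, -1.41, adjusted p = 4.03e-04). Of 16 acute-phase genes, which in liver accompany Hp and fibrinogen, 10 had too few reads for the test, with means of at most 0.167 CPM in either genotype, among them Saa1, Saa2 and Hpx. Beside Cp, the tested ones were Lbp (3.79 ± 0.554 against 2.13 ± 0.192 CPM, adjusted p = 0.00655, under the fold limit), Serpina3n (1.34 ± 0.691 against 0.399 ± 0.384 CPM, adjusted p = 0.0893), Lcn2 (1.36 ± 0.259 against 0.783 ± 0.380 CPM, adjusted p = 0.127), Apcs (1.92 ± 0.631 against 2.06 ± 0.634 CPM, adjusted p = 0.845) and Itih3 (0.704 ± 0.121 against 0.809 ± 0.216 CPM, adjusted p = 0.596). The summed level of the list was 64.7 to 76.5 CPM in TG+ and 32.2 to 40.8 CPM in TG- mice, most of it Cp. Clotting genes next to F2 in the cascade included F10 at 0.532 ± 0.159 against 0.283 ± 0.131 CPM (adjusted p = 0.122), F5 at 17.6 ± 4.24 against 13.7 ± 3.07 CPM (adjusted p = 0.240) and the thrombin inhibitor Serpinc1 at 2.27 ± 0.450 against 2.01 ± 0.403 CPM (adjusted p = 0.586). No tested gene of the 3 lists reached the log2 fold change of Fgl1, the smallest among the 5 genes that were near the detection limit in TG- kidneys. Those 5 genes were chosen on this contrast, so the gap follows from the choice.

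**Figure D3:**
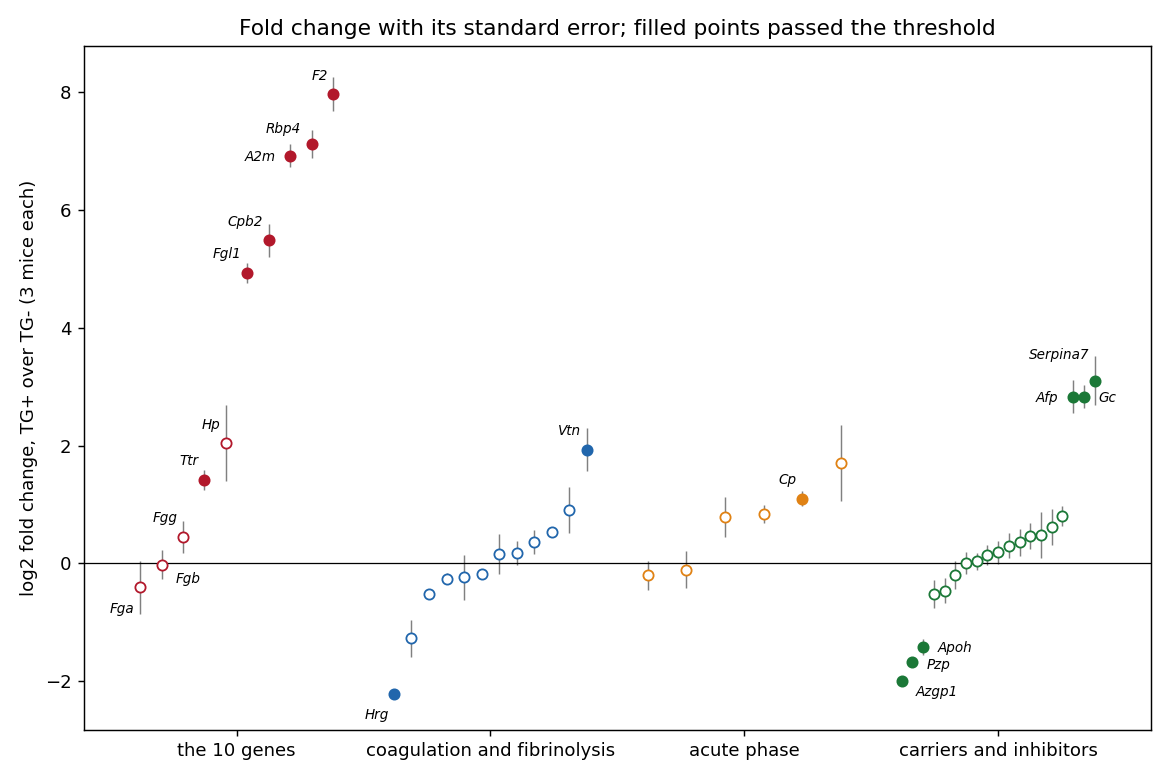
Log2 fold change, TG+ over TG-, of the 10 genes and of the tested genes of 3 lists of other liver plasma proteins, with the standard error as a bar and filled points for genes past the threshold. F2, Rbp4, A2m, Cpb2 and Fgl1 lie at 4.93 to 7.96, while the other lists run from -2.21 to 3.10. The 10 genes were chosen on this contrast, so that gap follows from the choice.

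Regulators of liver secretory genes were read as a list of transcription factors, cytokines, cytokine receptors and the feedback gene Socs3. Of 21 regulators of these kinds 15 were tested, and none passed (10 at an unadjusted p below 0.05, against 39.1% of all tested genes). The median log2 fold change of the tested ones was 0.37. Hnf4a was at 1135 ± 133 CPM in TG+ and 1428 ± 120.2 CPM in TG- mice (log2 fold change -0.33). The acute-phase factors Cebpd (1.12), Cebpb (0.37) and Stat3 (0.46) and the feedback gene Socs3 (0.76) had positive log2 fold changes that did not pass. Foxa1, Foxa2, Foxa3, Onecut1 and Il6 had too few reads for the test.

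Receptors and partners of these proteins were also read. Of 30 genes 29 were tested, 5 rose (against 3.77% of all tested genes) and none fell (against 0.211%). The median log2 fold change was 0.67, and 24 had an unadjusted p below 0.05, against 39.1% of all tested genes. Without the fold limit 10 were higher at an adjusted p below 0.01, against 1534 of all 19399 tested genes. Among the 5 were F13a1, the chain of factor XIII that crosslinks fibrin (5.55 ± 2.51 against 1.46 ± 0.305 CPM, edgeR adjusted p = 0.00476), the urokinase receptor gene Plaur (5.23 ± 1.06 against 2.26 ± 0.368 CPM, adjusted p = 0.00380), Itgb2, the chain shared by leukocyte integrins (12.6 ± 0.776 against 6.24 ± 0.861 CPM, adjusted p = 8.27e-04), and the haem-degrading enzyme gene Hmox1 (90.7 ± 19.2 against 43.9 ± 10.6 CPM, adjusted p = 0.00767). Each of these lost its call when at least 1 mouse was left out, F13a1 without any 1 of the TG- mice (highest adjusted p = 0.0231). Plaur and Hmox1 were lost without TG+ 43-29, TG+ 43-75, TG- 43-50 or TG- 43-76 (highest adjusted p = 0.0180 and 0.0293), and Itgb2 fell below the fold limit without TG+ 43-29, TG+ 43-49 or TG- 43-50 (lowest log2 fold change 0.90).

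The thrombin receptor F2r (98.3 ± 11.5 against 54.6 ± 12.3 CPM, log2 fold change 0.85, edgeR adjusted p = 0.00731) and Thbd, which turns thrombin toward protein C (61.7 ± 3.02 against 31.8 ± 2.99 CPM, 0.96, adjusted p = 1.82e-04), stayed under the fold limit. Cd163, the macrophage receptor for haptoglobin with haemoglobin, was at 1.96 ± 0.725 against 0.656 ± 0.236 CPM (adjusted p = 0.0151). Lrp1, the clearance receptor for A2m bound to a protease, had a log2 fold change of 0.57 (adjusted p = 0.0140), and the retinol receptor gene Stra6 one of 0.07 (adjusted p = 0.663). Megalin, Lrp2, was at 1954 ± 48.4 against 2694 ± 182 CPM (-0.46, adjusted p = 0.00213) and cubilin, Cubn, had a log2 fold change of -0.29 (adjusted p = 0.0551).

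Markers of other cell types were read beside these genes. Over all tested genes, 3.77% were called higher, 0.211% were called lower and 39.1% had an unadjusted p below 0.05. A positive log2 fold change was seen in 10042 of the 19399 tested genes. Of 12 proximal tubule markers, all tested, none was called higher and 1 lower (Slc22a6, which fell short of the fold limit with library size only), 9 had an unadjusted p below 0.05 and 11 a negative log2 fold change (median -0.55), with a summed level of 27735 to 30718 CPM in TG+ and 36216 to 38932 CPM in TG- mice. Of 11 tubular injury markers 3 were called higher (Havcr1, Krt19 and Cd44, of which Cd44 alone kept its call with any 1 mouse left out; the highest adjusted p was 0.0287 for Havcr1 and 0.0322 for Krt19), 10 had an unadjusted p below 0.05 and all 11 a positive log2 fold change (median 1.12), and the sums were 1058 to 1241 and 846 to 1066 CPM. The 7 macrophage markers gave no call (6 at an unadjusted p below 0.05, against 39.1% of all tested genes), with sums of 186 to 211 CPM in TG+ and 109 to 152 CPM in TG- mice. Of 6 erythroid markers 5 were tested and 1 was called, a call lost without any 1 mouse, with sums of 72.3 to 92.03 and 43.0 to 52.4 CPM, and of 7 platelet markers 5 were tested and none was called (2 at an unadjusted p below 0.05), with sums of 6.84 to 8.25 and 8.90 to 9.91 CPM. The 4 mesothelial markers gave no call (1 at an unadjusted p below 0.05), with sums of 10.96 to 13.6 and 8.96 to 10.8 CPM. The part of these cells in the levels of the 10 genes was not tested.

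The neighbours of the genes on the chromosome were examined, which the choice of genes did not use. Of the nearest tested genes on either side of F2, Cpb2, Fgl1, A2m, Rbp4, Ttr and Hp, Ffar4 beside Rbp4 was the only one called. Of all tested genes 3.77% were called higher and 0.211% lower. Ffar4 (ENSMUSG00000054200), a receptor for long-chain fatty acids that was named after its value was seen, ends 2.37 kb from Rbp4, and the genes point toward each other. The use of strand in the counting is not given in the sources used here. Reads running past the end of Rbp4 could therefore be counted for Ffar4, which was not tested. Ffar4 was at 13.9 ± 2.56 CPM in TG+ and 0.220 ± 0.0742 CPM in TG- mice (log2 fold change 5.99, SE 0.24, edgeR adjusted p = 6.39e-06). The gene on the other side of Rbp4, Fra10ac1, had a log2 fold change of -0.14. The genes beside F2, Ckap5 and Gm13771, had values of 0.15 and 0.09, and those beside Cpb2, Lcp1 and Zc3h13, of 0.86 (adjusted p = 0.00221, under the fold limit) and 0.21. Beside Fgl1, Mtus1 was at -0.05 and Gm16348 at 1.16 (adjusted p = 0.0701), and beside A2m, Iqsec3 was at 1.14 (adjusted p = 0.0961) at a distance of 162 kb. Beyond the fibrinogen cluster, Plrg1 next to Fgb had a log2 fold change of -0.01 and Lrat next to Fgg of -0.74 (adjusted p = 0.0706).

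**Figure D4:**
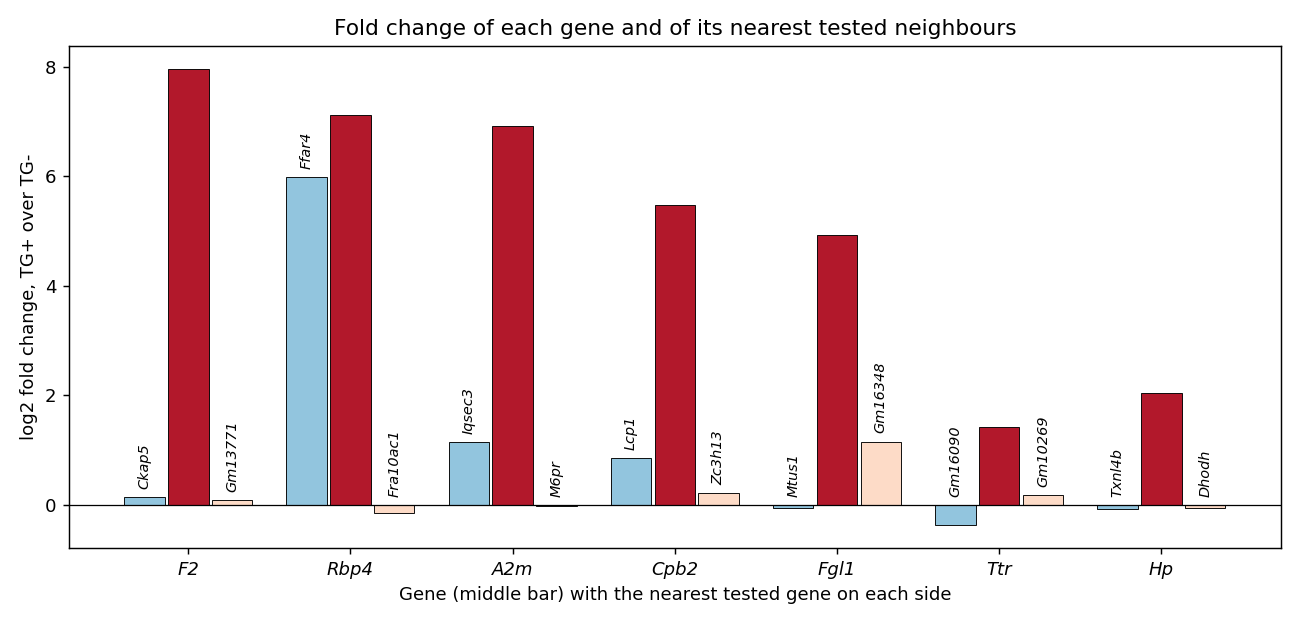
Bars give the log2 fold change, TG+ over TG-, of 7 of the genes (middle bar) and of the nearest tested gene on the lower and the higher coordinate side. Ffar4 beside Rbp4 reaches 5.99, and every other neighbour stays at or below 1.16.

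The genes outside the list whose levels were most like the list were found by Pearson's correlation, over the 12 libraries, with the mean of the 10 standardized log2 CPM values. Only tested genes with a mean of at least 1 CPM in TG+ mice were searched, so genes lower than that in TG+ mice could not be found. Tfr2, a transferrin receptor that takes part in iron sensing, was the nearest (r = 0.98, 3.51 ± 0.310 CPM in TG+ and 1.12 ± 0.313 CPM in TG- mice), followed by Gm2308 and by Efna1, an ephrin ligand gene (r = 0.97 for both), 9030619P08Rik (r = 0.97) and Lmf1 (r = 0.97), which encodes a lipase maturation factor. The 12 points share the genotype split and come in pairs from 6 mice, so the correlation largely restates that split.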

How the data were processed

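RNA from a thin outer slice of kidney cortex was prepared with a TruSeq kit and sequenced as single-end reads, and 12 libraries from 6 mice were analysed. The authors deposited raw read counts per Ensembl gene, without normalization, and RPKM values scaled by them, which served here only for levels per length and for the fibrinogen ratios. The submitters' processing notes name the build mm9, the study's methods name the Tuxedo tools for most of the analysis, and the counting program and the use of strand are not given in the sources used here. Lengths implied by the deposited RPKM differ from GENCODE M21. The deposited fold changes and p-values of the authors' own comparison were not used. Symbols matched 32642 of 37681 identifiers.

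Counts of the 2 kidneys were summed per mouse (48052131 to 60506785 reads; libraries 21888584 to 33704850), filtered (filterByExpr), scaled (TMM factors 0.944 to 1.07) and tested, 3 against 3 mice, with the quasi-likelihood test of edgeR 4.0.16 (R 4.3.3), and p-values were adjusted over 19399 genes by the Benjamini-Hochberg method. A call needed a fold above 2 or below 0.5 and an adjusted p below 0.01. Mice within a genotype were compared with the same tool, with kidneys as libraries. CPM use the scaled library size, and each value is a mean ± SD over 3 mice unless a library is named. Kidneys of a mouse are not separate animals, so those p-values measure only the spread between kidneys. DESeq2 1.42.0, other scalings, no filter, single kidneys, a littermate block and leaving out mice were alternatives. Scripts were tested on simulated data.

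The 10 genes and the lists were chosen with earlier results of these data known. Named were all 10 genes, list genes past the threshold, their partners and regulators by role, nearest neighbours and the 5 most alike genes. Some genes of the lists are counted but not reported here by name. Promoters, from RefSeq, were given for 6 genes, and the sequences of Ttr, A2m, Hp and Fgl1 were not analysed here.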

Additional observations from a re-analysis of the deposited data

Results flagged for a closer look

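Each gene was examined for a library standing apart from the other 5 of its genotype, in 20 groups of 6 libraries (10 genes in TG+ and in TG- mice), of which 2 were past Dixon's limit for the gap over the range. Chance gives about 1 in 20 such groups. A2m was at 0.961 CPM (24 reads) in kidney 2 of TG- mouse 43-26, against 0.532 CPM in the next library, a gap of 0.719 of the range. With that library left out the log2 fold change of A2m was 7.17 and that of F2 was 8.32.

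Hp was at 3.52 CPM (112 reads) in kidney 1 of TG- mouse 43-50, against 0.909 CPM in the next TG- library, a gap of 0.852 of the range. The library held 2.86 CPM of the adipocyte gene Adipoq, and the other 5 TG- libraries held at most 0.316 CPM. With it left out, 7 of the 10 genes were called higher in TG+ mice, Hp being the seventh.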

How the results depend on the processing

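The count of the 10 genes called higher was 6 with DESeq2, each other scaling, no filter, single kidneys, littermate pairs, other thresholds and each mouse left out. Of 150 recomputed log2 fold changes of the 10 genes (15 alternatives each), 142 moved by less than 1 SD between mice, 8 moved by more, and none of the 6 called values changed sign. The uncalled Fga turned positive (0.38) without TG- mouse 43-50, and the uncalled Fgb, near 0, took either sign (-0.22 to 0.24). The count of all genes called higher was 1534 with no fold limit, and lay between 469 (without TG- 43-76) and 633 (without TG+ 43-29) when a mouse was left out. Genes called lower numbered 22 with library size only, 72 at an adjusted p below 0.05 and 824 with no fold limit, and between 29 and 50 without a mouse. Library size only moved the median log2 fold change of all genes to 0.13. Other liver plasma protein genes called higher numbered between 3 (without TG- 43-76) and 4 without a mouse. Genes differing among TG+ mice numbered 3651 with no filter and 3682 at an adjusted p below 0.05, and between 685 (without kidney 1 of 43-29; 738 without kidney 2) and 1404 with a library left out, and the 10 genes gave 8 with no filter and between 3 and 5 with a library left out. Among TG- mice the counts were 1646 by the DESeq2 likelihood ratio test, 3969 with no filter and 4502 at an adjusted p below 0.05, and between 1712 (without kidney 1 of 43-76) and 2426 with a library left out, and the 10 genes gave 6 with no filter, 6 at an adjusted p below 0.05, and between 2 and 3 with a library left out. The cause of these changes was not tested beyond the construction of each alternative. With littermate pairs as a replicate block, pairs that were read from the mouse numbers in the name of the deposited table and are not stated in the labels, 6 of the 10 genes and 4 of the other liver genes were called higher. The libraries with 1 CPM or more of Adipoq left out, an alternative chosen after seeing the data, gave 608 genes higher and 35 lower. Depth limits the folds of F2, Rbp4, A2m, Cpb2 and Fgl1, whose TG- libraries held 4 to 31 reads.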
